A study of Mus musculus with 2 samples.

Results

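The cells described here are leukemic mouse cells, sorted as promyelocytes, that carried little RNA of 6 neutrophil granule genes after retinoic acid treatment. The granule share M of a cell is the percent of its UMIs (unique molecular identifiers, each marking 1 captured RNA molecule) in Camp, Ngp, Ltf, Lcn2, S100a8 and S100a9. Cells of the retinoic acid library with M under 0.5% were taken, and they numbered 490 of 6248 kept cells, or 7.84% (95% exact binomial interval 7.19 to 8.54). They were set beside the other 5758 kept cells of the same library and beside 5146 kept cells of the vehicle library, 11394 kept cells in all.

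Both libraries came from leukemic bone marrow of mice whose progenitors were transformed by PLZF/RARA, a fusion of the zinc finger protein PLZF (gene Zbtb16) with the retinoic acid receptor alpha (gene Rara). Vehicle mice received corn oil with 10% DMSO into the peritoneum, and treated mice received 0.8 to 1 mg of retinoic acid by the same route. Both treatments lasted 7 days. The sort took late promyelocytes that carried CD45.2, c-Kit, the neutrophil antigen Gr1 and an Fcγ receptor but lacked CD34, and their polyadenylated RNA was counted with droplet 3′ chemistry. Cohorts held 3 to 5 mice, but the labels do not say how many mice gave cells to a library. Each group held 1 library, so mice, sort, library and treatment cannot be told apart between vehicle and retinoic acid cells. No test was possible, and every interval given covers counting error only.

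Promyelocytes are the neutrophil precursors in which primary granules are filled with serine proteases such as neutrophil elastase (Elane), cathepsin G (Ctsg) and proteinase 3 (Prtn3), which serglycin (Srgn) helps to pack. Cells that mature further stop making these proteases and produce secondary granule proteins, among them lactoferrin (Ltf), the cathelicidin Camp and the lipocalin Lcn2, and then gelatinase granule and surface proteins such as Retnlg and Ly6g. Retinoic acid drives this step in leukemias with the more common PML/RARA fusion, while PLZF/RARA leukemia responds poorly. EZH2 is the methyltransferase of Polycomb repressive complex 2 (PRC2), which marks repressed chromatin.

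The low-granule cells were not shallow. Their median was 17456 UMIs per cell (quartiles 13449 and 22116), against 15136 in the other retinoic acid cells and 17172 in vehicle cells. They summed to 8842594 UMIs, and the other groups to 94129794 and 96831144. Scrublet called 7 of 7140 retinoic acid cells doublets (0.098%) and none of the 490, a share so low that the caller was taken not to have worked, and no cell was removed for it. The libraries shared 11 barcodes, none of them of a low-granule cell.

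The rule fixed how little granule RNA these cells held, so that is given only as a description. Their median M was 0.279% (quartiles 0.182 and 0.393), against 3.88% (1.67 and 11.0) in the other retinoic acid cells and 0.032% in vehicle cells. In the vehicle library, 4936 of 5146 cells (95.9%) lay under the same limit. M ran across the limit without a gap. The 3 cells nearest below it were at 0.4982, 0.4967 and 0.4965%, and the 3 nearest above at 0.5001, 0.5004 and 0.5008%. Between 0.4 and 0.5% there were 113 cells, and between 0.5 and 0.6% there were 147.

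**Figure D1:**
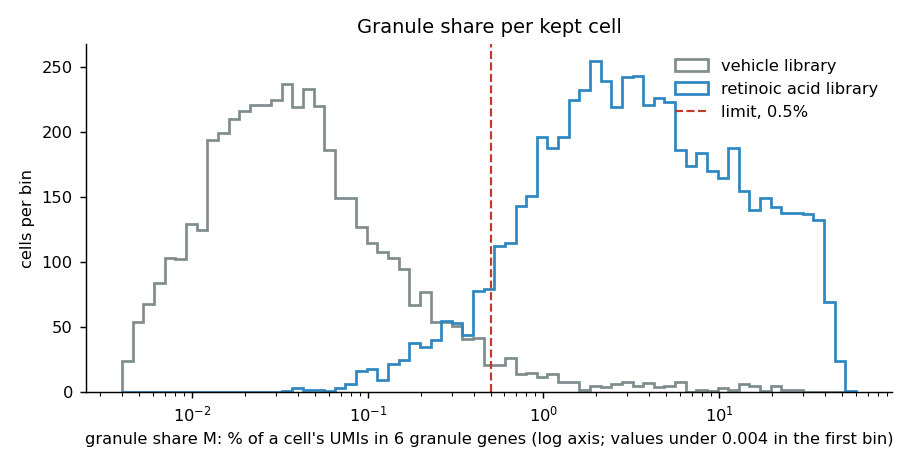
Number of kept cells (vertical axis) by granule share M in percent of UMIs (horizontal axis, log scale) for the vehicle library (grey) and the retinoic acid library (blue), with the limit of 0.5% dashed in red. The 490 low-granule cells form the lower tail of the retinoic acid library, which continues across the limit.

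The 6 genes of the rule did not make up this share in the same proportions in each group. Among the rule-gene UMIs of low-granule cells, Ngp held 30.7%, S100a8 29.7%, Camp 21.7%, S100a9 10.4% and Lcn2 7.42%. In the other retinoic acid cells Camp led with 30.0%, and S100a9 held 22.6% and Lcn2 2.75%. Ltf, the secondary granule iron binder, had 9 counts over the 490 cells, or 1.02 CPM (a gene's share of its group's summed UMIs, scaled to 1000000), against 102 CPM in the other retinoic acid cells and 4.55 CPM in vehicle cells. The order against vehicle depended on which vehicle cells were taken: the log2 ratio was −2.09 over all of them and 4.19 over those with M under 0.5%. No cell type lacking these genes was found in the retinoic acid library, so the level given by free RNA was not measured.

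Primary granule transcripts were abundant in most low-granule cells, with an exception in 1 cluster described below. Elane (chromosome 10, 79886247 to 79888215, plus strand, GRCm38) stood at 6060 CPM in them, 7820 CPM in the other retinoic acid cells and 62.9 CPM in vehicle cells. Their level was thus near that of the treated cells and far from that of vehicle cells, with log2 ratios of −0.37 (95% interval −0.38 to −0.36) over the first and 6.59 (6.55 to 6.63) over the second. With every cell thinned to 5000 UMIs, 95.7% of low-granule cells had an Elane UMI, against 93.1% and 15.9%. Without thinning the share in low-granule cells was 97.6%. The part of free RNA in shares of cells with a single UMI was not tested. Per thinned cell, the median was 27 Elane UMIs (quartiles 10 and 44) in low-granule cells, 34 (13 and 55) in the other retinoic acid cells and 0 in vehicle cells.

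Ctsg (chromosome 14, 56099881 to 56102574, minus strand), the other defining protease, was at 8040 CPM in low-granule cells, 5830 CPM in the other retinoic acid cells and 6470 CPM in vehicle cells. Its log2 ratio was 0.46 (0.45 to 0.47) over the pooled other treated cells and 0.31 (0.30 to 0.33) over vehicle. Over treated cells at M of 0.5 to 1% alone the first ratio was −0.06, and cells at M of 20% or more held 370 CPM. Srgn, the granule proteoglycan, was at 2730, 1740 and 2170 CPM in the 3 groups. Prtn3 was at 2670, 2840 and 246 CPM, and Ms4a3, a membrane protein of granulocyte precursors, at 2180, 2090 and 855 CPM. Both were thus close between the treated groups and higher than in vehicle cells. Prss57, a further granule protease, was at 370, 310 and 377 CPM.

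Over the genes with at least 20 CPM in either group, 5439 could be compared between low-granule and other retinoic acid cells, and the rule itself used this contrast. Of these, 18 (0.331%) were at least 2-fold higher and 81 (1.49%) at least 2-fold lower in low-granule cells, 75 of the latter outside the rule. The median log2 ratio of all compared genes was 0.10, and the rule genes held 6.46% of the UMIs of the other treated cells against 0.279% here. Of the 13 primary granule genes compared, none was 2-fold higher and 1 was 2-fold lower, with a median of 0.06, or −0.04 when ratios were centred on the median gene. The lower one was Fcnb, a ficolin of maturing granulocytes, with a UMI in 0.204% of thinned low-granule cells and 9.05% of the other treated cells.

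Promoters of 4 genes are shown for this contrast between granule programs: Elane and Prtn3, abundant in low-granule cells and other treated cells alike, and Camp and Ngp, whose scarcity defined the group. Each run is the 300 bases from 250 before to 50 after the RefSeq start (GRCm38.p6), 5′ to 3′ on the gene's strand, and all 4 genes were matched by symbol. Capitals mark matches on either strand to TTNNGNAA, a pattern of the C/EBP family of granulocyte regulators, or to GAGGAAG, a pattern of the ETS factor PU.1. The windows are, for Elane, chr10:79886062-79886361 (plus), for Prtn3, chr10:79879417-79879716 (plus), for Camp, chr9:109849407-109849706 (minus), and for Ngp, chr9:110419558-110419857 (plus).
Elane: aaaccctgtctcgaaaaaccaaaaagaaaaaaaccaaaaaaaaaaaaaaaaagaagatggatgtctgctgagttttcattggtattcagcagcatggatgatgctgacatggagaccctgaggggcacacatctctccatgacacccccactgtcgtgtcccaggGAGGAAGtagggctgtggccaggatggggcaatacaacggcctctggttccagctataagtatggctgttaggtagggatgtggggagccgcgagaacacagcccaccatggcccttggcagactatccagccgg
Prtn3: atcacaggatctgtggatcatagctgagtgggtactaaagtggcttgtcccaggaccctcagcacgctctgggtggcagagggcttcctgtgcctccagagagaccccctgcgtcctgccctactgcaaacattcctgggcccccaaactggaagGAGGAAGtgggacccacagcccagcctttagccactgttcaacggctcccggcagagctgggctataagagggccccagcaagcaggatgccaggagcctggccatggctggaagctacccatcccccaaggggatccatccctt
Camp: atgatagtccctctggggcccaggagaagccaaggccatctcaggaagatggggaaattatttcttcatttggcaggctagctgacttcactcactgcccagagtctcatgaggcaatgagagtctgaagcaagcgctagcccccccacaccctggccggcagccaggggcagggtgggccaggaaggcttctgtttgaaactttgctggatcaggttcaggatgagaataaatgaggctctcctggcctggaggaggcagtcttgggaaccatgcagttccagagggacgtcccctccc
Ngp: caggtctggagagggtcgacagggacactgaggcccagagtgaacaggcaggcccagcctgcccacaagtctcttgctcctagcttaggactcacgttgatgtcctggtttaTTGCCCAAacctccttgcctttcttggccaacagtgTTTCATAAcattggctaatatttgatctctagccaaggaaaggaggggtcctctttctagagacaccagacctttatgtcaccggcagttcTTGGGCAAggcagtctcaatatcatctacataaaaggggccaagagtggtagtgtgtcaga
The Elane and Prtn3 windows each held 1 match to GAGGAAG and none to TTNNGNAA. The Ngp window held 3 matches to TTNNGNAA and none to GAGGAAG, and the Camp window held neither. Among 32851 RefSeq promoter windows of this length, 40.7% held TTNNGNAA and 13.6% held GAGGAAG. A match is a description of the letters and says nothing of binding.

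Neutrophil genes outside the rule were also low in these cells. Of 25 late neutrophil genes compared with the other retinoic acid cells, 20 were at least 2-fold lower and none was higher, with a median log2 ratio of −2.65 against 0.10 over all genes. Genes under 20 CPM in low-granule cells entered only through the other treated cells and could only come out lower, so the count is a description. With no limit on CPM the median of the list was −2.17. Retnlg, a resistin-like secreted protein, was at 2.94 CPM against 209 CPM. Cd177, a neutrophil surface glycoprotein, was at 36.8 CPM against 328 CPM, and Olfm4, a secondary granule protein, at 48.9 CPM against 785 CPM. Cstdc5 was at 20.5 CPM against 841 CPM, but it belongs to the stefin genes, whose near-identical copies leave its counts uncertain.

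Set beside vehicle cells, part of this program was higher in low-granule cells. Of 16 late neutrophil genes compared, 6 were at least 2-fold higher and 2 at least 2-fold lower, with a median of 0.46 against 0.10 over the 5582 genes compared. Wfdc21, a small secreted protein of neutrophils, stood at 232 CPM in low-granule cells, 1040 CPM in the other treated cells and 15.1 CPM in vehicle cells. A Wfdc21 UMI was found in 57.6, 92.5 and 3.73% of thinned cells in the same order. Lrg1, a leucine-rich glycoprotein of granules, was at 75.3, 300 and 9.89 CPM, and haptoglobin (Hp) at 501, 1140 and 174 CPM. These 3 genes were thus intermediate, between vehicle and the other treated cells. Ly6g, the antigen that with Ly6c makes up Gr1, was not: it was at 18.9 CPM, against 272 CPM in the other treated cells and 30.4 CPM in vehicle cells. Ifitm6, an interferon-induced membrane protein, was at 2.49 CPM, under both the 131 CPM of the other treated and the 84.6 CPM of vehicle cells. These vehicle values include vehicle cells with M of 0.5% or more, and the orders of Ly6g and Ifitm6 are given over all vehicle cells. Over vehicle cells with M under 0.5% alone, the list median was 0.77. The log2 ratios of Wfdc21, Lrg1 and Hp were then 5.57, 3.51 and 1.66 in place of 3.94, 2.93 and 1.53.

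Along M, levels in the retinoic acid library differed from bin to bin, and for many genes the low-granule cells stood at one end. Srgn stood at 2730, 2600, 2400, 1960, 1290, 612 and 162 CPM in bins of M under 0.5, 0.5 to 1, 1 to 2, 2 to 5, 5 to 10, 10 to 20 and at least 20%. Ctsg was at 8040, 8410, 8200, 6720, 4360, 1970 and 370 CPM in the same bins, so low-granule cells were not the highest. Elane was at 6060, 8490, 9500, 9330, 7730, 4900 and 1190 CPM, highest at M of 1 to 2%. The rule genes take up part of these totals, more so at high M. With them left out of the totals, Elane was at 9640 CPM both at M of 1 to 2% and at 2 to 5%. In the last bin Elane was then at 1690 CPM, Ctsg at 524 CPM and Srgn at 230 CPM. Ltf stayed between 0.657 and 1.02 CPM up to M of 5%, then stood at 22.2, 81.3 and 1130 CPM. A share in the same cells defines the bins, so these values are a description. UMIs per cell also differed along M, from a median of 18263 at M of 0.5 to 1% to 9007.5 at M of at least 20%.

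**Figure D2:**
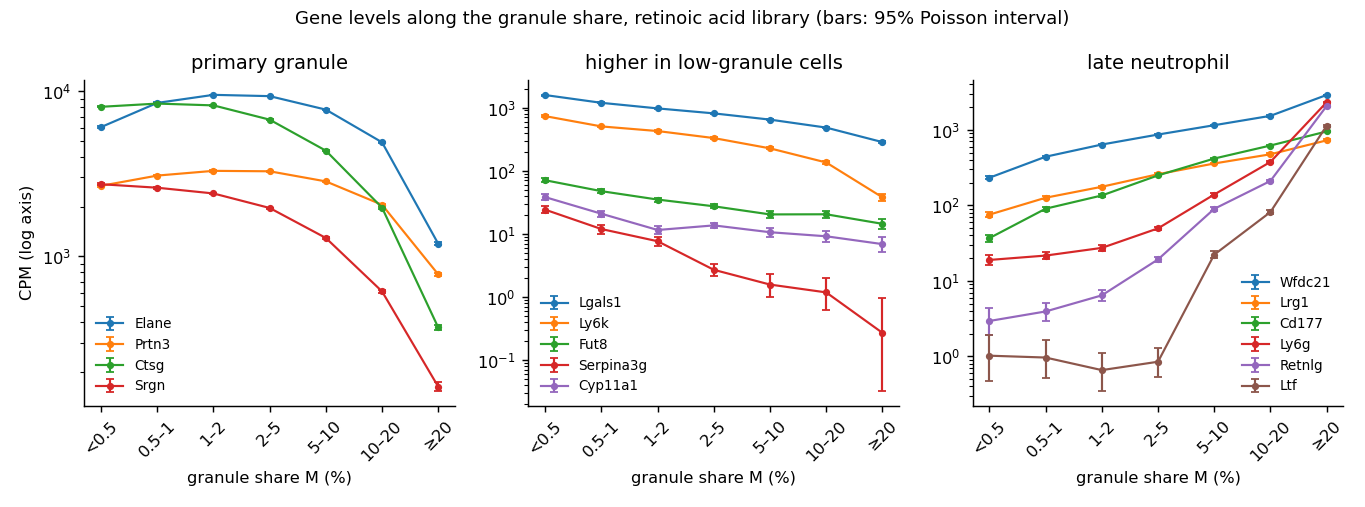
CPM of summed counts (vertical axes, log scale) in 7 bins of the granule share M in percent (horizontal axes) in the retinoic acid library, for primary granule genes, for genes higher in low-granule cells and for late neutrophil genes, with 95% Poisson intervals. With rule genes in the totals, Elane is highest at M of 1 to 2% (9500 CPM). Serpina3g declines from 24.1 CPM in the first bin, and Ltf stays near 1 CPM up to M of 5%.

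Against the nearest cells alone, few genes differed. Compared with the 697 cells at M of 0.5 to 1%, 13 of 5423 genes (0.24%) were at least 2-fold apart, 6 higher and 7 lower in low-granule cells. Among the lower were 4 rule genes, whose direction the limit on M fixed, which leaves 9 genes outside the rule. The median over the late neutrophil list was then −0.41. Those higher were Prg2, Epx, Anxa1, Ldhc, Ctsh and Serpina3g, and those lower were S100a8, S100a9, Camp, Ngp, Cd177, Thbs4 and Cstdc5. Cluster 2, described below, held most of the low-granule counts of Prg2, Epx, Ldhc and Ctsh. Outside that cluster these genes were at 2.87, 0.819, 5.05 and 7.92 CPM. In the cells at M of 0.5 to 1% they were at 7.27, 1.56, 7.34 and 11.3 CPM. No cells were left out at M of 0.5 to 1%, so these values do not order the remaining low-granule cells against them. Anxa1, the phospholipid-binding annexin, was at 23.1 CPM against 6.01 CPM there, while over all other treated cells it was at 51.3 CPM and in vehicle cells at 438 CPM.

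Genes higher in low-granule cells than in the other retinoic acid cells were mostly at higher levels still in vehicle cells. Of the 18, 14 were lower in low-granule than in vehicle cells, and the other 4 were Prg2, Pcbd1, Ly6k and Top1mt. Over all 5582 genes compared with vehicle cells, the median log2 ratio was 0.10 (quartiles −0.13 and 0.29). In the other treated cells some of the 18 were under the limit on CPM, such as Oaf (7.16 CPM) and Serpina3g (4.49 CPM). Such genes entered only through the low-granule cells and could only come out higher there, so the count of 14 is a description. Fut8, the core fucosyltransferase, was at 70.6 CPM in low-granule cells, 28.8 CPM in the other treated cells and 135 CPM in vehicle cells. Hmgn1, a nucleosome-binding protein, was at 58.9, 27 and 101 CPM. Cyp11a1, the enzyme that opens steroid synthesis by cleaving the cholesterol side chain, was at 38.1, 12.7 and 265 CPM. Lgals1, a secreted galectin, was just under the 2-fold limit, at 1580, 792 and 4730 CPM, with a log2 ratio of 1.00 (0.97 to 1.02). Low-granule cells thus lay between the 2 other groups for these 4 genes. Cluster 2, described below, contributed to this: without it the ratios of Fut8, Hmgn1 and Cyp11a1 over the other treated cells were 0.84, 0.78 and 0.76 in place of 1.29, 1.13 and 1.59, all under 2-fold.

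Ly6k, a surface protein of the LY6 family, was close to its vehicle level. It stood at 732 CPM in low-granule cells, 312 CPM in the other treated cells and 628 CPM in vehicle cells, and 93.3, 61.3 and 89.5% of thinned cells held a UMI. Among the 10 largest ratios over the other treated cells were also genes under the 2-fold limit. Fkbp11, a prolyl isomerase of the endoplasmic reticulum, was at 281, 158 and 266 CPM, and Selenom, a selenoprotein, at 278, 158 and 404 CPM. The metallothionein Mt2 was at 129, 71.9 and 225 CPM. Of 77 ribosomal protein genes compared, all 77 had ratios above 0 over the other treated cells, with a median of 0.21 before centring against 0.10 over all genes, but none reached 2-fold.

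Centring on the median gene left 15 of the 18 genes past 2-fold, as did totals without the rule genes, and in both Slc27a3, Pcbd1 and Gm2a were lost. Without cluster 2, described below, 10 of the 18 and 74 of the 81 lower genes were still past 2-fold.

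Compared with vehicle cells, 57 of 5582 genes (1.02%) were at least 2-fold higher and 198 (3.55%) at least 2-fold lower in low-granule cells. In the other retinoic acid cells against the same vehicle cells, 177 of 5568 genes (3.18%) were higher and 290 (5.21%) lower. Elane, Wfdc21 and Prtn3 had the largest ratios among higher genes with at least 50 CPM, at 6.59, 3.94 and 3.44. Next came Gng11, a G protein gamma subunit, at 61.1 CPM against 7.43 CPM in vehicle cells and 94.6 CPM in the other treated cells. Mogat2, a monoacylglycerol acyltransferase, was at 60.1, 9.13 and 106 CPM in that order, and the neuropeptide galanin (Gal) at 71.4, 15.2 and 280 CPM. The retinoic acid targets on the list were too low to compare: Dhrs3, a retinaldehyde reductase, was at 3.73 CPM in low-granule cells, 18.6 CPM in the other treated and 1.86 CPM in vehicle cells. Cyp26a1, which degrades retinoic acid, had 10 counts in the low-granule cells, or 1.13 CPM against 2.31 and 0.0723 CPM.

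**Figure D3:**
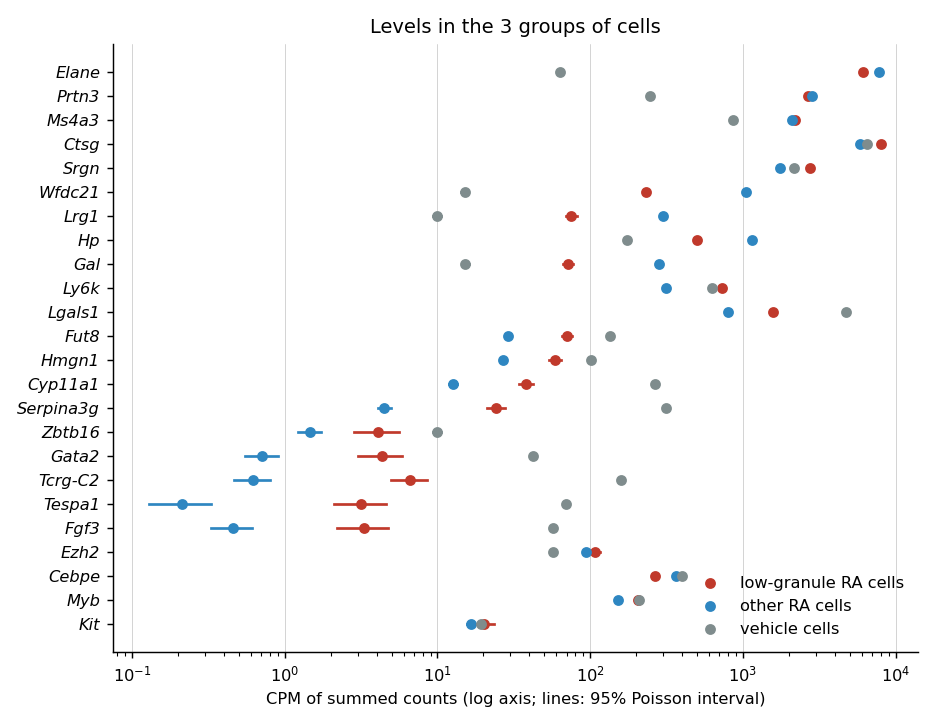
CPM of summed counts (horizontal axis, log scale, with 95% Poisson intervals) of 24 genes in low-granule retinoic acid cells (red), other retinoic acid cells (blue) and vehicle cells (grey). Elane and Prtn3 place the low-granule cells with the treated cells, Wfdc21, Lrg1, Fut8 and Serpina3g place them between the groups, and Kit is nearly level.

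Of genes that reached 50 CPM in 1 of these groups, Cpa3, Cd34 and Mpo were the furthest below vehicle cells. Cpa3, the mast cell carboxypeptidase, had 3 counts in the 490 cells (0.339 CPM) against 572 CPM in vehicle cells. Cd34, the progenitor antigen against which the sort selected, had 7 counts (0.792 CPM) against 54.2 CPM, and Mpo, the myeloperoxidase of primary granules, was at 6.11 CPM against 314 CPM. A list of 10 genes, chosen earlier from these data because vehicle cells held them highest, was thus lower by construction here, with 10 of 10 at least 2-fold lower and a median of −4.51.

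Within the treated library the same 10 genes had higher CPM in low-granule cells than in the others, mostly on few counts. Tcrg-C2, a T cell receptor gamma segment whose copy Tcrg-C1 leaves its counts uncertain, had 58 counts in each group, 6.56 CPM against 0.616 CPM. Tespa1, a thymocyte signalling protein, was at 3.17 against 0.212 CPM, and Serpina3g, a protease inhibitor with near-identical copies, at 24.1 against 4.49 CPM (213 and 423 counts). Log2 ratios ran from 1.76 (Igfbp4) to 8.60 (Mpo), and the interval of Cpa3 (−0.01 to 5.04) included 0. Without the 1 low-granule cell that held most Mpo, the Mpo ratio was 3.41. Without cluster 2, left out of the low-granule cells only, the Fgf3 ratio turned to −0.44 and no Cpa3 count was left in them.

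Few single cells looked like vehicle cells by this list. No UMI of it was found in 251 low-granule cells (51.2%), against 90.3% of the other treated and 0.836% of vehicle cells. The share of a cell's UMIs in the list reached the vehicle library's 5th percentile in 13 low-granule cells (2.65%, 1.42 to 4.49), in 7 other treated cells (0.122%, 0.0489 to 0.25) and, as set, in 95% of vehicle cells. Mpo was almost wholly the RNA of 1 cell: of 54 counts, 53 came from a cell with 25132 UMIs, 107 of Elane, 242 of Ctsg and none of Cpa3 or Cd34. Its M was 0.123%. All 5758 other treated cells held 1 Mpo count, and whether this cell was 2 cells in a droplet was not tested.

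Of 12 myeloid transcription factors compared with the other treated cells, none passed 2-fold in either direction, with a median of −0.23. Over all 5439 genes, 0.331% were higher and 1.49% lower, with a median of 0.10. At shares this low, none among 12 says little of the list. Against vehicle cells, none of 14 was 2-fold higher and 2 were 2-fold lower, with a median of −0.05. Over all 5582 genes, 1.02% were higher and 3.55% lower, with a median of 0.10. Cebpd, Spi1 (which encodes PU.1) and Gfi1, a repressor needed for neutrophils, were at 125, 189 and 108 CPM against 215, 299 and 148 CPM in the other treated cells, and 98.3, 172 and 76.0 CPM in vehicle cells. Cebpe, the regulator of secondary granule genes, was at 265, 362 and 399 CPM. Against treated cells at M of 0.5 to 1% its direction turned, with 265 against 223 CPM and a log2 ratio of 0.25 in place of −0.45. Low-granule cells outside cluster 2, described below, held 213 CPM of Cebpe. No cells were left out at M of 0.5 to 1%, so this does not order the 2 groups. Without that cluster, the Cebpe ratio over all other treated cells was −0.77. Myb, a progenitor factor, was at 206, 152 and 209 CPM, and Kit, one of the sorted antigens, at 20.1, 16.5 and 19.2 CPM. Gata2, a progenitor and mast cell factor, was at 4.30, 0.712 and 42.3 CPM. Zbtb16 was at 4.07, 1.46 and 9.91 CPM and Rara at 1.36, 1.89 and 10.9 CPM, and the counts do not separate the fusion from the normal genes.

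Ezh2 was at 108 CPM in low-granule cells, 94.3 CPM in the other treated cells and 57.2 CPM in vehicle cells, with log2 ratios of 0.20 (0.10 to 0.29) and 0.92 (0.82 to 1.02). Centred on the median gene, the first ratio was 0.10. Of 8 PRC2 genes compared, none reached 2-fold in either comparison, and medians were 0.12 and 0.52, against 0.10 over all genes in both. Over the other treated cells, 0.331% of all genes were 2-fold higher and 1.49% lower. The shares over vehicle cells were 1.02 and 3.55%. At such shares, none among 8 says little of the list. Suz12 and Eed, its other core subunits, were at 106 and 29.7 CPM in low-granule cells, 104 and 28.8 CPM in the other treated cells, and 74.2 and 30.6 CPM in vehicle cells.

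Cell cycle calls on thinned cells placed 24.3% of low-granule cells in G1 (20.6 to 28.3), 24.1% in S (20.4 to 28.1) and 51.6% in G2/M (47.1 to 56.1). The other treated cells had 26.5, 26.0 and 47.5%, and vehicle cells 51.9, 10.3 and 37.8%. Without thinning, 25.5, 26.3 and 48.2% of low-granule cells were called in G1, S and G2/M. The intervals of low-granule and other treated cells overlapped in all 3 phases, but they treat cells as independent and the pool of other treated cells was mixed. Along the bins of M, 24.3, 18.9, 21.5, 20.1, 18.5, 24.5 and 65.2% of cells were called in G1, so the low-granule share was above that of the 4 bins next to it and under that of the last. Median log2 ratios of the S and G2/M lists were 0.01 and −0.10 over the other treated cells, and 0.57 and 0.41 over vehicle cells. Within G1, Ezh2 was at 65.0 CPM (53.5 to 78.3) in low-granule cells, 46.3 CPM (43.2 to 49.6) in the other treated and 24.5 CPM (23.0 to 26.1) in vehicle cells. In S and G2/M low-granule cells had 118 CPM each, against 111 and 103 CPM in the other treated and 92.9 and 76.1 CPM in vehicle cells.

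**Figure D4:**
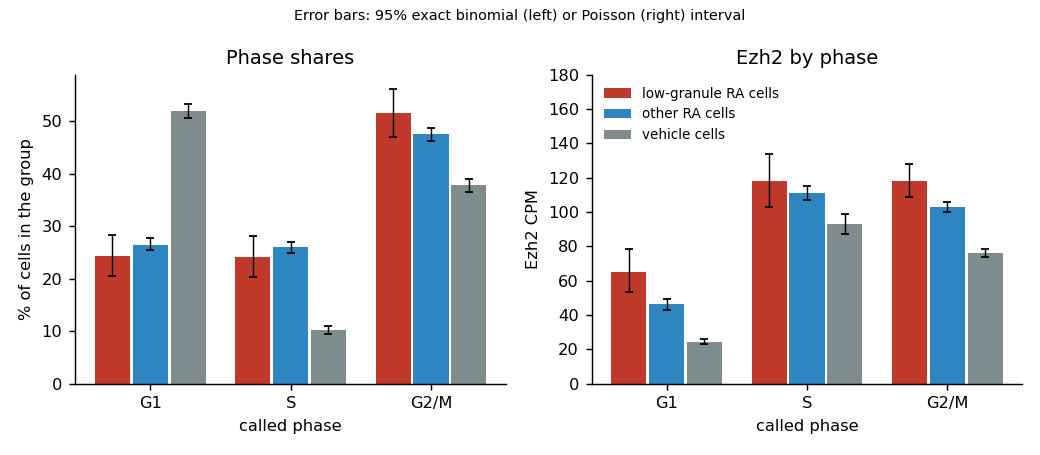
Percent of cells called in G1, S and G2/M (left, with exact binomial intervals) and Ezh2 CPM within each phase (right, with Poisson intervals) for the 3 groups. G1 holds 24.3% of low-granule cells and 51.9% of vehicle cells, and Ezh2 is lowest in vehicle cells in each phase.

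The low-granule cells were not uniform. Clustered alone, without the genes of the S and G2/M lists, they gave 5 clusters of 201, 95, 81, 61 and 52 cells. Other cell cycle genes, such as Tk1 and Hist1h1b, were not left out. Among the leading genes of clusters 3, 4 and 5 were replication genes such as Tk1 and Rrm2, mitotic genes such as Cenpf and Ube2c, and histone genes such as Hist1h1b, in that order, and none of the 3 held a cell called in G1. The first gene of cluster 3 by ratio was Mpo, from the 1 cell above. Cluster 1 held 48.3% G1 cells. Elane was at 7380, 7030, 6990 and 6700 CPM in clusters 1, 3, 4 and 5, close to one another.

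Cluster 2 stood apart, although a cluster's own genes describe it and cannot test it. Elane was at 902 CPM in its 95 cells (19.4%) against 7120 CPM in the remaining 395, with medians of 2 and 33 UMIs per thinned cell. Prtn3 was at 614 against 3100 CPM and Ctsg at 3830 against 8920 CPM. Other genes were higher: Cebpe was at 517 against 213 CPM, Lgals1 at 2550 against 1380 CPM, Fut8 at 162 against 51.6 CPM and Cyp11a1 at 119 against 21.3 CPM. Within the granule share, Ngp was at 1700 against 680 CPM, while S100a8 was at 134 against 972 CPM and Camp at 288 against 670 CPM. Median UMIs per cell were 15385 and 17877.

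The leading genes of cluster 2 were Prg2, Prg3, Epx and Ear6, which encode eosinophil granule proteins, followed by Ikzf2, Ldhc, Hdc, Lipg, Ctsh and Gata1. These 4 are eosinophil markers, but only 29 of its 95 cells (30.5%) held any UMI of Prg2, Prg3 or Epx, against 17 of the remaining 395 (4.30%), so the cluster is kept under its number. The eosinophil markers Ear1, Ear2 and Il5ra had no count in the 490 cells. Ldhc, the testis-type lactate dehydrogenase, was found in 55 cells of cluster 2 and was at 108 against 5.05 CPM. It was not particular to this cluster, with 143 CPM in vehicle cells and 7.5 CPM in the other treated cells. Gata1, the factor of eosinophil, mast and erythroid lineages, was at 21.8 against 1.64 CPM, and Gata2 at 17.1 against 1.64 CPM.

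Single cells weighed heavily in the eosinophil genes. Prg2 was at 175 CPM in low-granule cells, 2.33 CPM in the other treated cells and 27.9 CPM in vehicle cells, but 1456 of its 1544 counts (94.3%) came from 1 cell. Without that cell the log2 ratio was 2.10 over the other treated cells in place of 6.23, and −1.48 over vehicle cells in place of 2.65. With a limit chosen after seeing the data, 10 or more UMIs of Prg2, Prg3 and Epx together were found in 10 low-granule cells (2.04%, 0.983 to 3.72). The same limit was met by 2 of the other treated cells (0.0347%) and 136 vehicle cells (2.64%, 2.22 to 3.12). The 10 cells held a median of 1.5 Elane UMIs (0 to 38), and 9 of them lay in cluster 2. Leaving such cells out of each group kept 17 of the 18 higher genes past 2-fold, all but Prg2.

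**Figure D5:**
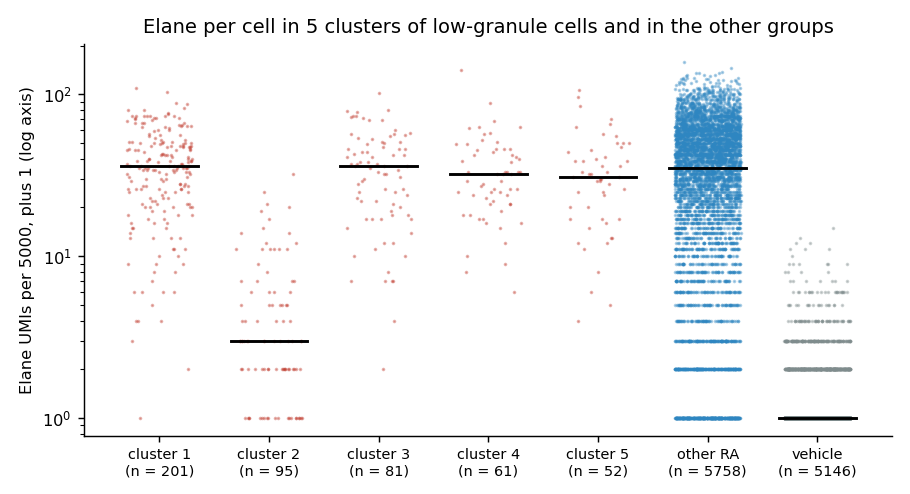
Elane UMIs per cell thinned to 5000 UMIs, plus 1 (vertical axis, log scale), in the 5 clusters of low-granule cells (red), in other retinoic acid cells (blue) and in vehicle cells (grey), with medians as black lines. Cluster 2 has a median of 2 UMIs, the other 4 clusters have medians of 30 to 35, and vehicle cells have a median of 0.

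Elane per cell spread widely in the 490 as a whole. At 5000 UMIs, 376 cells (76.7%, 72.7 to 80.4) held 10 or more Elane UMIs, 55 held 3 to 9, 38 held 1 or 2 and 21 (4.29%, 2.67 to 6.48) held none. In the other treated cells 79.0% held 10 or more, and in the vehicle library 7 cells (0.136%) did.

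Markers of other cell types were summed in each group. Summed levels of the promyelocyte markers were 19300 CPM, against 18900 in the other treated and 8320 CPM in vehicle cells. Mast cell and basophil markers summed to 82.9, 67.0 and 817 CPM, with Mcpt8 the most abundant at 603 counts and Fcer1a, Cma1, Prss34, Tpsb2, Tpsab1 and Mcpt4 at 0. Monocyte and macrophage markers summed to 243, 321 and 296 CPM, mostly Vcam1 with 1933 counts, and Csf1r, Ly86 and Cx3cr1 were at 0. Eosinophil markers summed to 245, 8.21 and 97.8 CPM, highest in the low-granule cells, where 1 cell held 1776 of the counts. T and NK markers summed to 710, 564 and 1300 CPM, almost all of it Nkg7, which is also on the primary granule list, and Cd3e and Cd3g were at 0. B lymphoid, erythroid, megakaryocyte, stem cell and stromal markers summed to 38.1, 55.3, 2.71, 17.3 and 71.1 CPM, and dendritic markers to 174 CPM, mainly Bst2.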

How the data were processed

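The deposited matrices hold UMI counts of single cells with no normalization, written by Cell Ranger 4.0.0 against mm10 (GRCm38.p4) per the submitters' processing notes. The matrices list 32285 gene identifiers, of which 32235 matched GENCODE M21, the source of all gene coordinates. Cells needed at least 5000 UMIs, 500 genes and 0.1 to 10% mitochondrial UMIs. This left out 1168 of 7416 retinoic acid barcodes, 129 of them with M under 0.5%, and 640 of 5786 vehicle barcodes. The group, the gene lists and the named genes were chosen with earlier results of these data known.

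Counts were summed per group and expressed as CPM. Log2 ratios used 0.5 added counts and an exact binomial interval conditional on both sums. Sums carry Poisson intervals and shares Clopper-Pearson intervals, at 95%. With 1 library per group no test was run. Genes with at least 20 CPM in either group were compared, and called means at least 2-fold. A sum of 0 allows up to 3 counts, 0.339 CPM in the low-granule cells. Named genes were Elane, Ctsg, the rule genes, Ezh2, the fusion partners, list members with at least 20 CPM in any group, and the 10 largest ratios each way at 50 CPM or more. Other genes named from counts of 18 or fewer, and those leading clusters, were chosen after their values were seen. Cells were thinned to 5000 UMIs for shares of cells and for phases (scanpy 1.11.5). Clusters used 1000 variable genes, 20 components, 15 neighbours and Leiden resolution 0.5. The ratio calculation was tested on simulated counts.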

Additional observations from a re-analysis of the deposited data

How the results depend on the processing

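No paired analysis was possible because vehicle and retinoic acid had 1 library each. For the same reason no replicate could be left out. Of 3690 recomputed gene ratios, 118 changed sign, 10 of them from a value of at least 2-fold, all given here, and 108 from a smaller one. The counts of genes at least 2-fold apart followed the limit on CPM. Against the other retinoic acid cells, 80 genes were higher and 149 lower at 5 CPM, 2 and 28 at 100 CPM, and 3654 and 631 with no limit. Against vehicle cells they were 147 and 485, 15 and 59, and 3440 and 1700. With no limit, even a gene without a count in low-granule cells can come out higher. The 0.5 added counts weigh more in their smaller total of UMIs. The 3654 and 3440 are thus not counts of genes shown to be higher. An M limit of 0.25% left 208 cells and 31 higher genes over the other retinoic acid cells, and a limit of 1% gave 1187 cells. Cells of 10000 to 20000 UMIs gave 28 higher genes over the other retinoic acid cells and 124 over vehicle cells. Against cells at M of 0.5 to 1% alone, an alternative chosen after seeing the data, 6 genes were higher and 7 lower, and the ratios of Anxa1, Ltb4r1, Ltf and Stfa2 turned to 1.94, 0.02, 0.10 and 0.61, as did smaller ratios, among them Cebpe at 0.25, Ctsg and Kit at −0.06, Suz12 at −0.06, and Ms4a3 and Eed at −0.17. Ms4a3 also turned on centring, to −0.04, and Prtn3 without cluster 2, to 0.13. Outside cluster 2, Cebpe was at 213 CPM, beside 223 CPM in cells at M of 0.5 to 1%, of which none were left out.

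Without cluster 2, Fgf3 and Ldhc turned to −0.44 and −0.55 against the other retinoic acid cells, and Prg2 to −3.25 against vehicle cells. Cells were left out of the low-granule side only, so these signs do not order the remaining low-granule cells against the other groups. Without the low-granule cell highest in Prg2, a choice also made after seeing the data, Prg2 stood at −1.48 against vehicle cells. Ltf against vehicle cells was −2.09, but 0.15 in cells of 10000 to 20000 UMIs and 4.19 against vehicle cells with M under 0.5%. Cells with an Elane UMI were 97.6% unthinned and 91.8% at 3000 UMIs, those with Prtn3 98.4 and 93.5%, and those with Ms4a3 96.5% at 3000 UMIs. Resolution 0.3 gave 3 clusters. With the vehicle library's 1st or 10th percentile as the limit, 120 or 4 low-granule cells reached it. The depth of 8842594 UMIs limits genes of few counts, such as Ltf with 9 and Cpa3 with 3, and a single cell can set them. Cell filters changed no other count of genes by over 1.5 times. Leaving out the 5% highest doublet scores changed none by more either. The caller was taken not to have worked, so the part of doublets was not tested.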
